A study of Mus musculus with 4 samples.

Results

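The genes of the major histocompatibility complex (MHC) class I system were examined in the aorta of mice, through 23 Affymetrix probe sets of 22626 in all. A probe set is a group of short oligonucleotides on the array that reports 1 transcript. The genes were H2-K1, H2-D1, H2-T23, H2-T10, H2-T22, H2-Q10, H2-M3, B2m, Tap1 and Tapbp, and a probe set was taken when the platform annotation named 1 gene only and that gene was among these 10. H2-D1 had 9 such probe sets, H2-K1 and Tap1 had 4 each, B2m and Tapbp had 2 each, and H2-Q10 and H2-M3 had 1 each. H2-T23, H2-T10 and H2-T22 had 0, and are reached by probe sets annotated to several genes. On the whole array 12393 genes have a probe set of their own, 7 of them from these 10. Of the 7 probe sets that name a class I gene together with others, 4 name 1 of the 10 genes and 3 name 2. These 7 are given under all their names and enter no count.

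All mice lacked apolipoprotein E (apoE-/-), which clears lipoprotein remnants, and were females of 6 weeks. The groups were C3H/HeJ (C3H below) on Western diet, C3H on chow, C57BL/6 on Western diet and C57BL/6 on chow. Weaning was onto chow at 3 weeks, and Western diet was given from 4 weeks for 2 weeks. Each group had 1 array, no group had a replicate, and the labels do not say whether an array held RNA of 1 mouse or of several.

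MHC class I molecules display peptides from inside the cell to CD8+ T cells and to natural killer cell receptors. H2-K1 and H2-D1 encode the classical heavy chains, which vary greatly between strains. Each heavy chain pairs with beta-2 microglobulin, encoded by B2m. Peptides enter the endoplasmic reticulum through the TAP transporter, of which Tap1 encodes a subunit, and tapasin (Tapbp) holds the empty heavy chain at the transporter. Interferons raise the transcription of most of these genes. C57BL/6 carries the MHC haplotype b and C3H haplotype k, so the heavy chain genes of the strains can differ in sequence under the probes. In the RefSeq gene table, 9 of the 10 genes lie on chromosome 17, in the order Tapbp, H2-K1, Tap1, H2-D1, H2-Q10, H2-T23, H2-T22, H2-T10 and H2-M3, and B2m lies on chromosome 2.

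The heavy chain genes resemble each other down to their promoters, which is shown by the 250 bases before the annotated start of H2-K1, H2-D1 and H2-Q10, beside those of B2m. The sequences are from RefSeq, build GRCm38.p6, which is C57BL/6J and thus haplotype b. Capitals mark matches, on either strand, to GGGATTCCC (an NF-kappaB site), to AANNGAAA (the core bound by interferon regulatory factors), to TGACG (part of a cyclic AMP response element) and to CCAAT, and matches of different motifs do not overlap here.
H2-K1, chr17:34000348-34000597, minus strand: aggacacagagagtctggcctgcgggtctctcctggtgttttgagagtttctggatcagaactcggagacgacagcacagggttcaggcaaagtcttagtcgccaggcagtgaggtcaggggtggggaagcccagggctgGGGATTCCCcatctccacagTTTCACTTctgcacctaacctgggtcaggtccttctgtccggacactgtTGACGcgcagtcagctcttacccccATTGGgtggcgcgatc
H2-D1, chr17:35262844-35263093, plus strand: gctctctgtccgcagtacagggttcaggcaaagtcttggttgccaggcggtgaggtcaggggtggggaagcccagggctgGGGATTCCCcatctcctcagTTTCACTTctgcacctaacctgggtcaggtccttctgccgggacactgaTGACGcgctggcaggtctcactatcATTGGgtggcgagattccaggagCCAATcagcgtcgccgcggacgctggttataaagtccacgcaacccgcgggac
H2-Q10, chr17:35469839-35470088, plus strand: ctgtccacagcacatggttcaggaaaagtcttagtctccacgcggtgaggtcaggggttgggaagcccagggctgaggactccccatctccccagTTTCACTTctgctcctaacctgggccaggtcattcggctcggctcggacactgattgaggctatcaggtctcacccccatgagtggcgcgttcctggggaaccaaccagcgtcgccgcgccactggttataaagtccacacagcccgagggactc
B2m, chr2:122147437-122147686, plus strand: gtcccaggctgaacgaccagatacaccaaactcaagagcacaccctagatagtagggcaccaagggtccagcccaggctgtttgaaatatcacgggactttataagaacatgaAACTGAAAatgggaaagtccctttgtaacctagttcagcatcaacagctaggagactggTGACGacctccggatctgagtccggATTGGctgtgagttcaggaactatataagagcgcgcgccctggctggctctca
H2-K1 has 2 windows in the table, of which the first is shown. Where the windows overlap in an alignment, H2-K1 and H2-D1 shared 167 of 191 columns (87.4%), H2-K1 and H2-Q10 shared 161 of 195 (82.6%), and H2-D1 and H2-Q10 shared 209 of 253 (82.6%). The NF-kappaB letters stand in H2-K1 and H2-D1, against 0.301% of all 32851 windows, and not in the H2-Q10 window. The letters TTTCACTT, an instance of the interferon core read on the other strand, stand in the windows of H2-K1, H2-D1, H2-Q10, H2-T22 and H2-M3, 5 of the 9 genes with a window, against 1.36% of all windows. AANNGAAA is in 7 of the 9 and 21.3% of all, TGACG in 6 and 17.8%, and CCAAT in 8 and 33.8%. These are matches of letters, not measured binding, and the haplotype k promoters were not used here.

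The arrays were put on a common distribution by quantile normalization, and signals below are on that linear scale. A signal at or under 83.6, the 40th percentile of all values, was treated as not measured. Where 1 of a pair of arrays lay there, it was raised to this floor and the fold is given as "at least". Of the 23 probe sets, 9 were above the floor on all 4 arrays, 5 on 3, 4 on 2, 1 on 1 and 4 on 0. Smooth muscle markers were high on every array, with a summed signal of Acta2, Myh11, Tagln, Cnn1 and Smtn of 69550 in C3H on Western diet, 42350 in C3H on chow, 73340 in C57BL/6 on Western diet and 97130 in C57BL/6 on chow. All 5 endothelial markers were above the floor on 3 arrays and 4 of 5 on C57BL/6 chow. Fat markers summed to 42110 in C3H on Western diet, 63560 in C3H on chow, 34860 in C57BL/6 on Western diet and 29290 in C57BL/6 on chow, and 3 of 4 were at least 2-fold higher in C3H on chow. Fibroblast markers summed to 28430 in C3H on Western diet, 15090 in C3H on chow, 21680 in C57BL/6 on Western diet and 58610 in C57BL/6 on chow. By 2-fold or more, 4 of 5 were lower in C3H on chow, and 3 of 5 lower with Western diet in C57BL/6. Heart muscle markers moved with strain, with 1 of 5 above the floor on each C3H array (sums of 201.7 and 237.2 on Western diet and chow) and 5 of 5 on each C57BL/6 array (8471 and 11250). The C3H chow array had an actin 3'/5' ratio of 2.28, against 1.63 to 1.83 on the others, and its correlations with them were 0.868 to 0.904 over the 8740 probe sets measured on all, while the other pairs reached 0.931. The part of these differences in the class I results was not tested. In whole tissue, fewer cells of a type and less RNA per cell cannot be told apart.

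**Figure D1:**
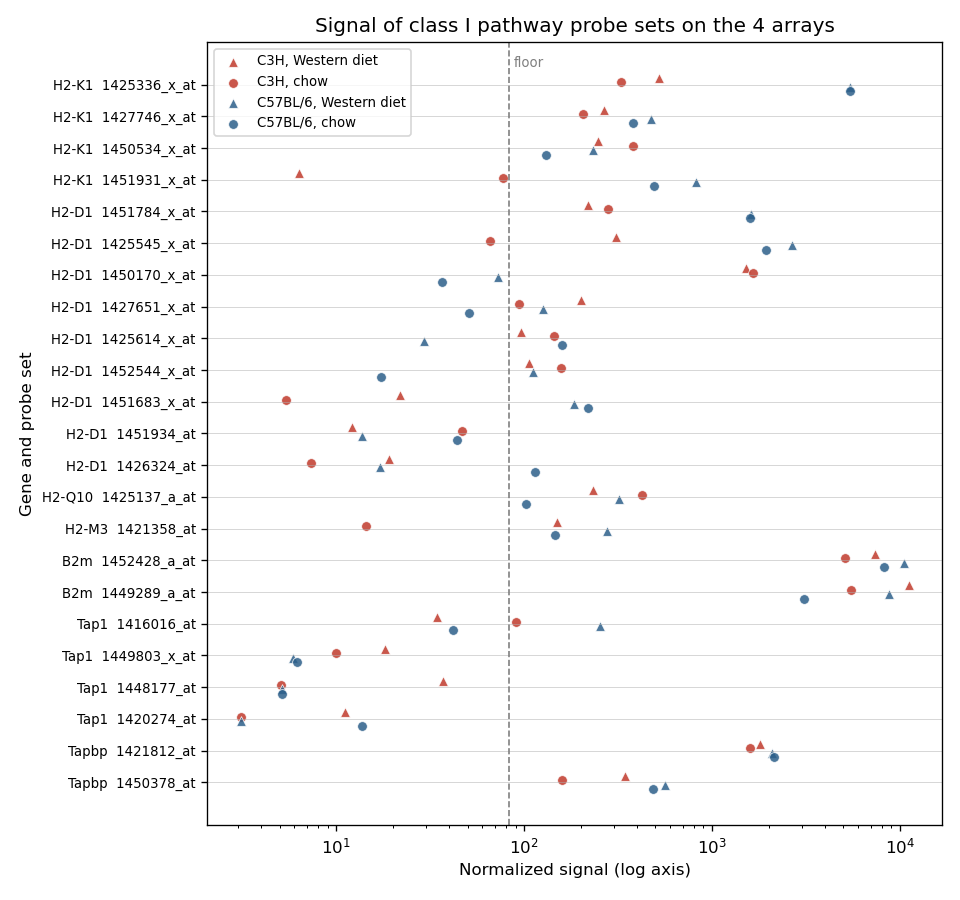
Normalized signal (log axis) of each of the 23 probe sets, by gene and probe set, on the arrays of C3H (red) and C57BL/6 (blue) on Western diet (triangles) and chow (circles). The dashed line is the floor of 83.6. The first and last H2-K1 rows and several H2-D1 rows show the widest gaps between strains. Both Tapbp rows and the first B2m row separate by smaller gaps, and the strains overlap in the second B2m row.

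Of the 4 H2-K1 probe sets, 3 were lower in C3H on both diets, 2 of them far lower, and the remaining one pointed the opposite way. Probe set 1425336_x_at had signals of 521.7 in C3H on Western diet and 328.5 in C3H on chow, against 5418 on each C57BL/6 array. The strains did not overlap, and C3H was 10.4-fold lower on Western diet and 16.5-fold lower on chow. Probe set 1451931_x_at had signals of 6.36 and 77.2 in C3H on Western diet and chow, both under the floor, against 819 and 489.7 in C57BL/6. The C3H signal was lower by at least 9.80-fold on Western diet and at least 5.86-fold on chow. Probe set 1427746_x_at differed less, with 266.7 and 205.4 in C3H on Western diet and chow, against 470.8 and 381.7 in C57BL/6, so it was 1.77-fold and 1.86-fold lower. Probe set 1450534_x_at had 246 and 378.1 in C3H, against 232.3 and 130.6 in C57BL/6. Its strains were nearly equal on Western diet (1.06-fold higher in C3H), and C3H was 2.90-fold higher on chow.

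H2-D1 was read by 9 probe sets, and their strain differences ran in both directions. Probe set 1451784_x_at had signals of 218.9 in C3H on Western diet and 279.3 in C3H on chow, against 1613 and 1590 in C57BL/6, which made it 7.37-fold and 5.69-fold lower in C3H. Probe set 1425545_x_at had 309.7 and 65.9 in C3H, against 2655 and 1938 in C57BL/6, or 8.57-fold lower in C3H on Western diet and at least 23.2-fold lower on chow. Neither of these probe sets overlapped between strains. Probe set 1450170_x_at showed the reverse, with 1524 and 1661 in C3H on Western diet and chow, against 72.4 and 36.4 in C57BL/6, both under the floor. It was thus at least 18.2-fold higher in C3H on Western diet and at least 19.9-fold higher on chow. The same gene name therefore stood at a high signal in either strain, depending on the probe set read. Sequence differences under the probes and differences in RNA level between the haplotypes cannot be told apart in these files.

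The dimmer H2-D1 probe sets were mixed as well. Probe set 1451683_x_at had 21.8 and 5.41 in C3H on Western diet and chow, under the floor, against 184 and 220 in C57BL/6, so it was at least 2.20-fold and 2.63-fold lower in C3H. Probe set 1427651_x_at had 200.1 and 94.1 in C3H, against 126.5 and 50.8 in C57BL/6. Probe set 1452544_x_at had 106.4 and 157.6 in C3H, against 111.3 and 17.3 in C57BL/6. On Western diet these differed by log2 0.66 and -0.06 in C3H minus C57BL/6, and on chow they were at least 1.13-fold and at least 1.89-fold higher in C3H. Probe set 1425614_x_at, with 96 and 143.5 in C3H against 29.5 and 158.9 in C57BL/6, was at least 1.15-fold higher in C3H on Western diet and 1.11-fold lower on chow. Probe set 1451934_at was under the floor on all arrays (12.2 to 46.5). Probe set 1426324_at passed it only on C57BL/6 chow, at 113.8. Of the 13 probe sets of H2-K1 and H2-D1, 11 carry _x_ in their name, which the array maker uses where probes may also bind other transcripts. On the whole array 1512 probe sets do.

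An additive fit in limma with terms for strain and diet was run on the 14915 probe sets that passed the floor on 2 or more arrays, of which 18 were class I probe sets. It called 5 of the 18 for strain at a Benjamini-Hochberg adjusted p of 0.05, 4 lower in C3H and 1 higher. Over all probe sets it called 0.261% as lower and 0.121% as higher in C3H. The 4 lower calls were H2-K1 1425336_x_at (log2 -3.71 ± 0.31 SE, adjusted p = 1.36e-06 in limma), H2-D1 1425545_x_at (-3.99 ± 0.41, 1.68e-05), H2-D1 1451784_x_at (-2.69 ± 0.34, 2.01e-04) and H2-K1 1451931_x_at (-4.84 ± 1.01, 0.0417). The higher call was H2-D1 1450170_x_at (log2 4.95 ± 0.49, limma adjusted p = 1.26e-05). In each called probe set every C3H signal lay on 1 side of both C57BL/6 signals. The calls were picked for a large strain term on the same arrays, so this adds no support to them. Signals under the floor entered the fit as measured, which touches the calls of 1425545_x_at, 1451931_x_at and 1450170_x_at. Probe set 1451931_x_at passed the filter through the C57BL/6 arrays alone, and 1450170_x_at through the C3H arrays alone. For these calls the filter was not independent of the strain difference.

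The fit has 1 residual degree of freedom, the unreplicated interaction, beside a prior of 17.3 shared across probe sets. Its p-values thus rest mostly on the size of that interaction pooled over probe sets. No group has a replicate, so the spread between like arrays or mice was not estimated. With a prior without a mean trend, 0 of the 5 passed in limma (lowest adjusted p 0.63, with 804 of all probe sets at an unadjusted p under 0.05). In fits on strain alone that left out 1 array in turn, H2-K1 1425336_x_at (adjusted p 8.99e-05 to 0.0148 in limma) and H2-D1 1450170_x_at (0.00521 to 0.0288) passed each time. The other 3 lost the call with either C57BL/6 array left out (highest limma adjusted p 0.173 for 1451784_x_at, 0.248 for 1425545_x_at and 0.996 for 1451931_x_at). Without the C3H chow array all 5 passed, and without the C3H Western array 1451931_x_at did not (limma adjusted p = 0.052). The smallest two-sided p that an exact permutation of 2 C3H and 2 C57BL/6 arrays allows is 0.333. A probe set whose strains do not overlap reaches no lower than this. The share of all probe sets whose strains do not overlap was not counted.

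The disagreement between probe sets of 1 gene was measured as the SD of the strain difference over those of its probe sets that passed the floor on 2 or more arrays, with dim signals raised to the floor and both diets averaged. For H2-D1 this SD was log2 2.61 over 7 probe sets, which ran from -3.82 to 4.25. For H2-K1 it was 2.04 over 4 probe sets, from -3.71 to 0.81. Among 1043 genes with at least 3 such probe sets, 0 had a larger SD than H2-D1 and 1, H2-D1 itself, had a larger SD than H2-K1, where the median was 0.39. For the diet difference, which compares arrays of the same haplotype, the SD was 0.66 for H2-D1 and 0.12 for H2-K1, against a median of 0.35, and 106 and 945 of the 1043 genes had a larger one. Both heavy chain genes thus stood at the end of the range for strain and within it for diet, as a description with no test. Probe sets 1450170_x_at, 1451931_x_at and 1451683_x_at were under the floor on both arrays of 1 strain. Raising these signals to the floor left no diet difference in that strain. Without it, H2-K1 1451931_x_at had a diet difference of log2 -1.43 in limma. The contrast between strain and diet thus depends in part on the floor. Probe sets 1450170_x_at, 1451931_x_at and 1451683_x_at also passed the filter through 1 strain alone. The strain SD of both genes and its rank are thus not independent of that filter. The upper end of 4.25 for H2-D1 was that of 1450170_x_at.

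**Figure D2:**
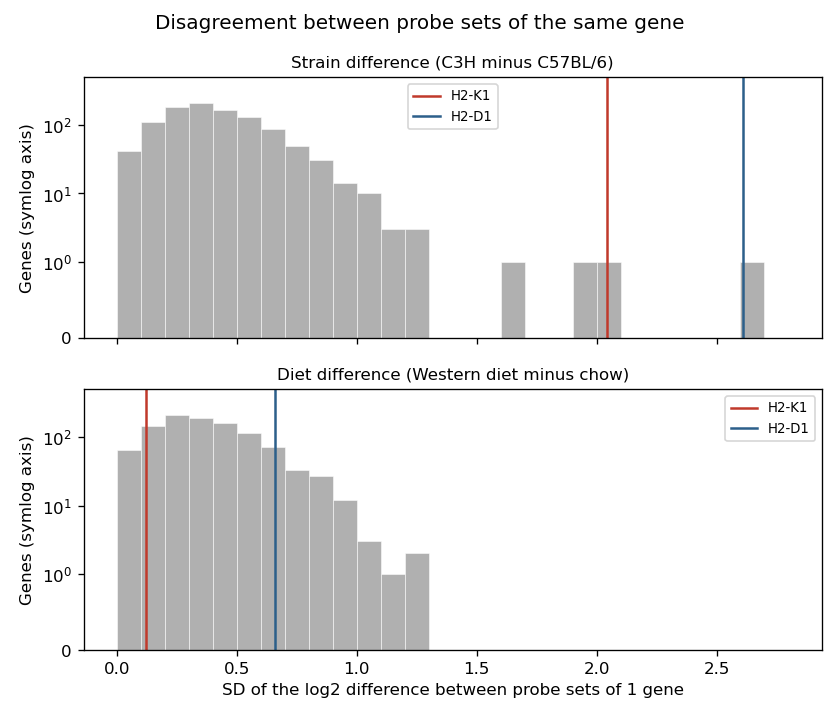
Number of genes (symlog axis) by the SD, on the log2 scale, of the strain difference (upper panel) and of the diet difference (lower panel) between probe sets of 1 gene, for 1043 genes with at least 3 probe sets. Lines mark H2-K1 (2.04 for strain, 0.12 for diet) and H2-D1 (2.61 for strain, 0.66 for diet).

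No probe set of the nonclassical class I genes passed limma for strain (lowest adjusted p 0.847), and measured differences reached 4.12-fold. H2-Q10 encodes a secreted class I chain known from liver. Its probe set 1425137_a_at had signals of 233.5 in C3H on Western diet and 423.4 in C3H on chow, against 319.6 and 102.7 in C57BL/6. On Western diet it was 1.37-fold lower in C3H and on chow 4.12-fold higher, so the strains overlapped. Markers of liver were low, with Apoa1 and Ttr under the floor on every array and summed signals of Alb, Apoa1, Apoa2, Ttr and Fgb of 463.9 and 329.2 in C3H on Western diet and chow, against 282.8 and 96.4 in C57BL/6. Of 5 liver markers, 3 passed the floor on C3H Western, 2 on C3H chow, 1 on C57BL/6 Western and 0 on C57BL/6 chow. The liver sums thus hold values treated as not measured. The part of liver RNA in the H2-Q10 values was not tested.

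H2-M3 presents peptides that begin with formyl-methionine, of bacterial or mitochondrial origin. Its probe set 1421358_at had 148.8 and 14.4 in C3H on Western diet and chow, against 275.6 and 146.8 in C57BL/6. It was 1.85-fold lower in C3H on Western diet and at least 1.76-fold lower on chow, and its only value under the floor was that of the C3H chow array. H2-T23 encodes Qa-1, a ligand of receptors on natural killer cells. Probe set 1449556_at, annotated to H2-T23 and H2-T-ps together, had 929.5 and 927 in C3H, against 752.9 and 704.3 in C57BL/6, or 1.23-fold and 1.32-fold higher in C3H. The other probe set with these 2 names, 1419658_at, was under the floor on all arrays.

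H2-T22 and H2-T10 encode class I-like chains that bind gamma delta T cell receptors in mice, and RefSeq lists H2-T10 of C57BL/6J as a transcribed pseudogene. Probe set 1449875_s_at names H2-T9, H2-T22 and H2-T10, and had 590.6 and 392.2 in C3H on Western diet and chow, against 271.7 and 331.1 in C57BL/6. It was 2.17-fold higher in C3H on Western diet and 1.18-fold higher on chow, and the strains did not overlap, although limma did not call it (log2 0.68, adjusted p = 0.847). Probe set 1439121_at, with the same 3 names, stayed under the floor. Probe set 1424948_x_at names both H2-K1 and H2-D1, and had 239.9 and 346.9 in C3H, against 208.9 and 176 in C57BL/6, so it was 1.15-fold and 1.97-fold higher in C3H. The 2 remaining shared probe sets, 1422348_at (Gm38417, H2-Q2 and H2-D1) and 1451593_at (H2-Q5 and H2-K1), passed the floor on C57BL/6 Western alone, at 109.5 and 139.4.

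B2m, the light chain that class I heavy chains share, differed by less than 2-fold between strains. Probe set 1452428_a_at had signals of 7398 in C3H on Western diet and 5076 in C3H on chow, against 10500 and 8263 in C57BL/6, or 1.42-fold and 1.63-fold lower in C3H. Probe set 1449289_a_at had 11110 and 5488 in C3H, against 8769 and 3098 in C57BL/6, or 1.27-fold and 1.77-fold higher. The probe sets of B2m thus disagreed on the sign of the strain difference by less than 2-fold each, and limma called neither (adjusted p = 0.847 for both).

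Both B2m probe sets agreed on diet. With Western diet 1449289_a_at was 2.02-fold higher in C3H and 2.83-fold higher in C57BL/6, and 1452428_a_at was 1.46-fold and 1.27-fold higher. The limma diet term gave log2 1.26 and 0.44, with unadjusted p of 0.00304 and 0.262 and an adjusted p of 1 for both. General leukocyte markers were higher with Western diet too. The sum of Ptprc, Cd53, Laptm5, Coro1a and Cd52 was 1164 on Western diet against 493.4 on chow in C3H, and 1355 on Western diet against 547.1 on chow in C57BL/6, with 5 of 5 above the floor on both Western arrays, 4 on C3H chow and 3 on C57BL/6 chow. T and B cell markers were mostly under the floor, with 1 or 2 of 5 above it on each array and Cd4 on none. Their sum was 267 on Western diet against 428.4 on chow in C3H, and 206.4 against 422.4 in C57BL/6. In C3H, Cd3e (91.6 against 59.8) and Cd3g (91.7 against 57) were higher on Western diet. Cd8a (12.8 against 135.9) and Cd79a (54.3 against 129.5) were lower there. With dim signals raised to the floor, the median log2 difference was 0.0 in each strain. The part of leukocytes in the B2m values was not tested.

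Tap1, the peptide transporter subunit, had 1 probe set that passed the floor on any array. This probe set, 1416016_at, had 34.4 and 90.9 in C3H on Western diet and chow, against 253.6 and 42.1 in C57BL/6, so it was above the floor on C57BL/6 Western and C3H chow alone. Relative to C57BL/6, C3H was at least 3.03-fold lower on Western diet and at least 1.09-fold higher on chow. The other Tap1 probe sets, 1449803_x_at, 1448177_at and 1420274_at, stayed under the floor on all arrays, at 3.11 to 37. Tapasin was measured throughout. Tapbp 1421812_at had 1801 and 1594 in C3H, against 2073 and 2141 in C57BL/6, or 1.15-fold and 1.34-fold lower in C3H. Tapbp 1450378_at had 342.3 and 159.6 in C3H, against 564.8 and 485.9 in C57BL/6, or 1.65-fold and 3.04-fold lower. Both probe sets were lower on each C3H array than on either C57BL/6 array, and limma called neither (adjusted p = 0.885 and 0.701).

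Counted over the 23 probe sets, the strain difference on chow was measured for 10, of which 3 were at least 2-fold lower in C3H (H2-K1, H2-D1 and Tapbp, 1 probe set each) and 2 higher (H2-K1 and H2-Q10). Over all measured probe sets 8.94% were lower and 8.20% higher. By bound, 3 of 9 were lower and 1 higher, against 13.9% in each direction over all probe sets. On Western diet 13 were measured, with 3 lower (1 of H2-K1 and 2 of H2-D1) and 0 higher, against 4.24% and 4.17% over all. By bound, 3 of 5 were lower and 1 higher, against 9.63% and 9.95%. The median log2 difference of the measured class I probe sets was -0.56 on chow and -0.51 on Western diet, beside 0.03 and 0.01 over all probe sets. The pairs share no array. Among the 9 class I probe sets that all 4 arrays measured, 6 were lower in C3H on both diets, 2 higher on both and 1 opposite, where all 8740 such probe sets gave 25.4%, 27.0% and 47.4%. At 2-fold on both diets, 2 of the 9 were lower and 0 higher, against 0.927% and 0.664%. Of these 9, those lower on both diets were of H2-K1, H2-D1, B2m and Tapbp. Those higher on both were further probe sets of H2-K1 and B2m. Probe sets of 1 gene are not independent readings.

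**Figure D3:**
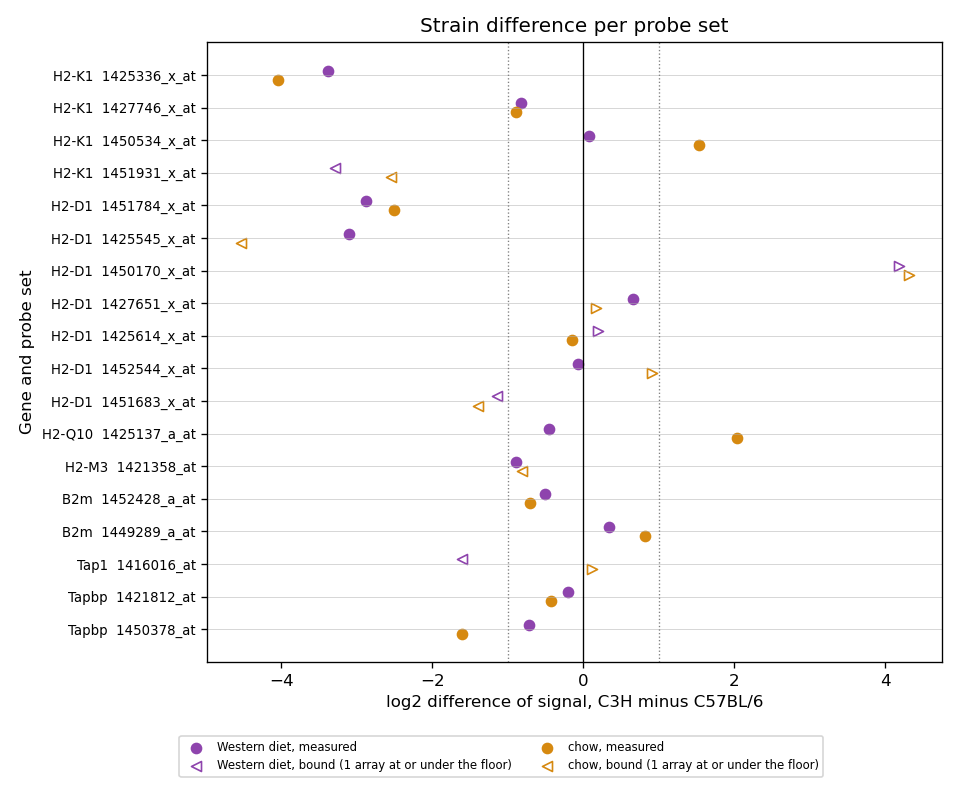
log2 difference of signal, C3H minus C57BL/6, on Western diet (purple) and chow (orange) for the 18 probe sets that passed the floor on 2 or more arrays. Open arrowheads are bounds, and dotted lines mark 2-fold. H2-D1 probe sets reach from beyond -4 to beyond 4, while both Tapbp probe sets lie below 0 on both diets.

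With Western diet most measured class I probe sets differed by under 2-fold, and those that reached 2-fold were higher. In C3H, 13 were measured, and 3 were at least 2-fold higher (H2-D1 1427651_x_at at 2.13-fold, B2m 1449289_a_at and Tapbp 1450378_at at 2.14-fold) and 0 lower, against 6.40% and 5.95% over all probe sets. By bound, 1 of 3 was higher and 0 lower, against 12.5% and 12.9%. That one was H2-D1 1425545_x_at, at least 3.71-fold higher. In C57BL/6, 13 were measured, with 2 higher (B2m 1449289_a_at, and H2-Q10 at 3.11-fold) and 0 lower, against 3.79% and 3.97%. By bound, 1 of 5 was higher (Tap1 1416016_at, at least 3.03-fold) and 0 lower, against 10% and 9.71%. The median log2 difference was 0.18 in C3H and 0.35 in C57BL/6, beside 0.00 over all probe sets in both.

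The limma diet term called 0 of 18 class I probe sets and 0% of all 14915 in each direction, with 2 and 367 at an unadjusted p under 0.05 (lowest adjusted p over all, 0.424). All C3H values here are taken against the C3H chow array. With the deposited values in place of the normalized ones, 1 probe set and not 3 was at least 2-fold higher in C3H. The C3H signal of H2-K1 1425336_x_at was 1.59-fold higher on Western diet. In C57BL/6 it had the same rank on both arrays, which gave it a log2 difference of 0.00, although its deposited values were 5762 on Western diet and 4886 on chow. H2-D1 1451784_x_at was lower by 1.28-fold on Western diet in C3H, and higher by 1.01-fold in C57BL/6. H2-D1 1450170_x_at, read in C3H alone, was 1.09-fold lower there, and H2-K1 1451931_x_at, read in C57BL/6 alone, was 1.67-fold higher. Heavy chain probe sets thus differed with diet by under 2-fold in these cases, and by more than that in C3H for 1427651_x_at and 1425545_x_at of H2-D1, given above. Probe set 1425545_x_at had an unadjusted limma diet p of 0.00387 (adjusted p of 1). H2-M3 was higher on Western diet, by at least 1.78-fold in C3H and 1.88-fold in C57BL/6, and Tapbp 1421812_at differed by log2 0.18 and -0.05. Over the 9 probe sets measured on all arrays, 4 were higher with Western diet in both strains, 0 lower in both and 4 opposite, where all probe sets gave 23.7%, 21.4% and 54.8%.

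**Figure D4:**
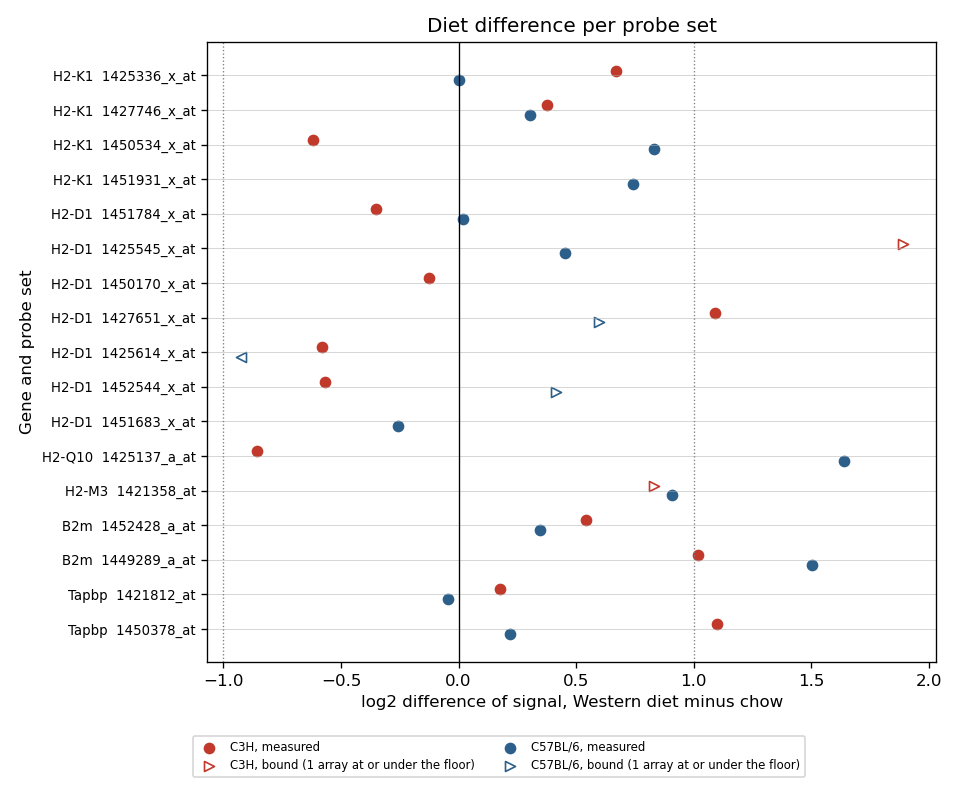
log2 difference of signal, Western diet minus chow, in C3H (red) and C57BL/6 (blue) for class I probe sets measured on both arrays of at least 1 strain. Open arrowheads are bounds and dotted lines mark 2-fold. Both B2m rows lie above 0 in both strains, and H2-Q10 lies on opposite sides.

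The other genes of the pathway were read from a list of 25 that supply peptides, fold the heavy chain or regulate its transcription, of which 21 had a probe set of their own (34 in all). Between strains, 0 were at least 2-fold lower and 2 higher in C3H on chow (Psmb8 and Tap2, of 20 measured), against 8.94% and 8.2% over all probe sets. On Western diet 0 were lower and 2 higher (Calr and Rfxank, 1 probe set each, of 24), against 4.24% and 4.17%. The medians were log2 0.22 on chow and 0.08 on Western diet. By bound, Psmb9 was at least 2.06-fold higher in C3H on chow. Limma called 0 of 27 for strain, with 1 at an unadjusted p under 0.05, and 0 for diet. The immunoproteasome subunit Psmb8 had signals of 311.3 and 223 in C3H on Western diet and chow, against 174.7 and 107 in C57BL/6. Psmb9, another such subunit, had 234.6 and 172.1 in C3H, against 142.1 and 50.6 in C57BL/6. In both genes the strains did not overlap, with limma adjusted p of 0.847 and 0.847. They overlapped for a further immunoproteasome subunit, Psmb10, at 359.8 and 319.2 in C3H, against 352.5 and 227.7 in C57BL/6. The chaperone calreticulin (Calr) gave limma log2 differences of 0.55 to 1.16 over 3 probe sets (lowest adjusted p 0.297), and Canx, for calnexin, hardly differed by 1415692_s_at (964.6 and 979.3 in C3H, against 965.9 and 971.7 in C57BL/6). Canx 1422845_at had 329.5 and 229.6 in C3H, against 385.5 and 425.9 in C57BL/6, or 1.17-fold and 1.86-fold lower in C3H. Tap2, the partner of Tap1, had 219.8 and 521.2 in C3H, against 302.1 and 187.4 in C57BL/6. Irf1, an activator of class I genes, had 349.8 and 382.2 in C3H, against 442.6 and 424 in C57BL/6. With Western diet Tap2 was 2.37-fold lower in C3H, the only one of 22 measured to reach 2-fold there. In C57BL/6 the only one of 22 measured was Irf2, another interferon regulatory factor, at 2.17-fold higher. By bound, Rfxank was at least 3.38-fold higher by 1419310_s_at and at least 2.12-fold lower by 1455371_at with Western diet in C3H.

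Other class I and class I-like genes, a list of 29 of which 14 had their own probe sets (18 in all), were counted too, and 9 of the 18 passed the floor on 2 or more arrays. Between strains 7 were measured on chow, with 1 lower (Mr1) and 1 higher (Cd1d1) in C3H by 2-fold, against 8.94% and 8.2% over all probe sets. On Western diet 6 were measured with 0 in either direction, against 4.24% and 4.17%. Limma called 0 of 9 for strain, with 1 at an unadjusted p under 0.05, and 0 for diet. The neonatal Fc receptor chain Fcgrt had 1595 and 1440 in C3H on Western diet and chow, against 1185 and 1369 in C57BL/6. Mr1, which presents vitamin B metabolites, had 167.1 and 98.3 in C3H, against 127.1 and 276.2 in C57BL/6 by 1421899_a_at, which was 2.17-fold lower with diet in C57BL/6. Its probe set 1421898_a_at had 215.5 and 30.3 in C3H, against 188.8 and 243.8 in C57BL/6, and was higher with diet in C3H by at least 2.58-fold. The lipid-presenting Cd1d1 had 842.1 and 918.2 in C3H, against 890.9 and 522.2 in C57BL/6 by 1449131_s_at. Its further probe set 1449130_at had 484.6 and 589.3 in C3H, against 346.7 and 188.9 in C57BL/6.

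Genes that lie between H2-K1 and H2-M3 on chromosome 17 and neither bear an H2 name nor stand in the lists above were counted for comparison. Of 213 such genes in RefSeq, 83 had a probe set of their own (125 in all). On chow 3 of 63 measured probe sets were at least 2-fold lower and 7 higher in C3H, against 8.94% and 8.2% over all probe sets. On Western diet 2 of 58 were lower and 5 higher, against 4.24% and 4.17%. The medians were log2 0.02 on chow and 0.20 on Western diet. For class I, limma called 5 of 18 probe sets for strain, all of them of H2-K1 or H2-D1. Of these, 1451931_x_at and 1450170_x_at passed the filter through 1 strain alone. Probe sets of 1 gene are not independent readings. Among the neighbouring genes limma called 1 of 88, and the difference in share was not tested. The call was Tubb5, a beta-tubulin, at 492.3 and 335 in C3H on Western diet and chow, against 2404 and 4356 in C57BL/6 (limma log2 -2.99 ± 0.34, adjusted p = 6.33e-05) by 1455719_at, while 1416256_a_at had 1862 and 1344 in C3H, against 1388 and 2334 in C57BL/6 (limma adjusted p = 0.957). The complement gene Cfb and the receptor gene Gabbr1 were at least 2-fold higher in C3H on both diets by 1 probe set each, at 2.59-fold and 2.05-fold on Western diet and 2.18-fold and 2.66-fold on chow, and neither passed limma (adjusted p = 0.847 and 0.797).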

How the data were processed

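Total RNA was extracted with Trizol and labelled with biotin for a 1-colour Affymetrix array, per the labels' protocols, which give 8 ug per sample. The authors deposited 1 linear intensity per probe set and array (22690 with controls). The sources used here do not give the software or background step behind it. The 64 controls were left out. The deposited columns share a mean after trimming 2% at each end (250.1), and their medians were 110.3 to 128.1. Log2 values were quantile normalized, with the 40th percentile as floor. Names came from the platform's annotation, in which 20380 probe sets name 1 gene, 691 several, and 1555 are unnamed here.

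Differences within a pair of arrays have no test, and were counted at 2-fold. An additive fit (strain, diet) was run in limma 3.58.1 (R 4.3.3), with eBayes and a mean trend. With Benjamini-Hochberg adjustment over all fitted probe sets, it gave the main p-values. The fit was also run on simulated data with the same noise level for all probe sets, which cannot check the mean trend. Alternative limma fits gave the other p-values. The rest used Python 3.11.15 with matplotlib 3.10.9, pandas 2.3.3, scipy 1.17.1 and numpy 2.4.6. The genes, lists and tests were chosen with earlier results of these data known. Every probe set of the class I genes is named. From the lists, those called by limma or 2-fold on both diets were to be named, and others were named after their values were seen. No protein sequences were used. The number of arrays limits all precision. Alternatives were other normalizations, floors, fold limits, filters, priors and models, arrays left out, and, added after seeing the data, the shared probe sets.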

Additional observations from a re-analysis of the deposited data

Results flagged for a closer look

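H2-Q10 1425137_a_at and H2-K1 1450534_x_at differed with diet in opposite directions by at least 1.5-fold in each strain. The C3H response minus the C57BL/6 response was log2 -2.50 for H2-Q10, from -0.86 in C3H and 1.64 in C57BL/6. It was log2 -1.45 for H2-K1 1450534_x_at, from -0.62 in C3H and 0.83 in C57BL/6, while H2-K1 1425336_x_at gave 0.67 and 0.00. With equal array medians the C3H difference of H2-K1 1450534_x_at was log2 -0.47, which is under 1.5-fold. Both C3H responses are taken against the C3H chow array, whose actin 3'/5' ratio was the highest. With 1 array per group these differences were not tested.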

How the results depend on the processing

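No paired analysis was possible because each group has 1 array. The deposited values, equal medians and cyclic loess moved 0 of 147 log2 differences of single class I probe sets by more than the pooled SD between probe sets of 1 gene (log2 0.49 for strain, 0.44 for diet), and turned no called difference. Of 62 limma strain calls of the 5 called probe sets under alternatives, 17 were lost. Counts of class I probe sets were small, so they moved more. With the deposited values, 1 was at least 2-fold higher with diet in C3H. With the floor at the 25th percentile, strain on chow gave 5 lower and 4 higher, strain on Western diet 1 higher, diet 1 lower in C3H and 4 higher in C57BL/6. With it at the 60th percentile, 0 were higher by strain on chow and 1 by diet in each strain. At 1.5-fold, strain gave 5 lower on chow, and 6 lower and 1 higher on Western diet, and diet gave 2 lower in C3H and 5 higher in C57BL/6. At 3-fold, 1 was higher by strain on chow, and 0 in C3H and 1 in C57BL/6 by diet. With 1 probe set per gene these last 3 counts were 1, 0 and 1, and limma called 2 class I probe sets lower and 0 higher for strain among 26 in all. Against 57 calls in all and 4 lower and 1 higher for class I, limma without a mean trend gave 0, 0 and 0, no filter gave 119 calls in all (and 5 for diet, against 0), and strain alone gave 30 in all and 2 lower for class I. With 1 array left out, 7 to 44 were called in all and 1 to 4 class I probe sets were lower. In these fits the lone array is assumed to vary like the other strain's. Adding the 4 shared probe sets that name 1 class I gene changed no count. The cause of these moves was not tested. Signals near the floor limit the dimmer probe sets.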
